A study of Mus musculus with 412 samples.

Results

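A set of 10 genes tied to axon injury and regrowth was examined in single colonic sensory neurons of the mouse. It held Atf3, Sox11, Sprr1a, Csf1, Flrt3, Ecel1, Gadd45a, Gap43, Stmn4 and Nefl. The members were taken as the entries of the expression table whose Ensembl identifiers map to these symbols in the annotation of the GRCm38 mouse genome. All 10 were found among 45513 genes. The aim was to describe which of them varied together with Atf3 from neuron to neuron and which marked a type of neuron.

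The neurons came from C57BL/6J mice in which the retrograde tracer Fast Blue (FB) had been injected into the colon wall through a laparotomy. Dorsal root ganglia (DRG) were removed 3 to 10 days later from the thoracolumbar segments T10-L1 (TL) and from the lumbosacral segments L5-S2 (LS), and dissociated into separate cultures, and single FB-labelled neurons were picked by pipette. Every neuron had therefore been through tracer surgery, dissection and dissociation, and no uninjured group was part of the design. The table held 167 TL and 158 LS neurons from 6 library plates. The mouse behind each neuron was not given, which leaves 1 sample for TL and 1 for LS. No p-value was computed, and intervals cover counting error only.

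When the axon of a DRG neuron is cut, signals carried back to the cell body switch on a programme of transcription factors, which in turn act on genes for growth, survival and signalling to neighbouring cells. ATF3 and SOX11 are transcription factors of that programme. SPRR1A, GAP43 and STMN4 act on or near the growing cytoskeleton, and NEFL is the light subunit of the neurofilament. CSF1 is a secreted factor for macrophages and microglia, FLRT3 is a membrane protein of the growing axon, ECEL1 is a membrane protein of the endothelin converting enzyme family, and GADD45A is a stress and growth arrest protein. Dissociation is known to start parts of the same programme, together with early response genes such as Fos.

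To show DNA beside the starts of members, the 150 bases before the RefSeq start of 4 of them were read on the strand of each gene. These were Atf3, its co-varying members Flrt3 and Sox11, and Sprr1a, which was not called as co-varying. The window of Gadd45a, which also co-varied with Atf3, is not shown. Capitals mark matches to 2 motifs that ATF3 and its partners of the AP-1 and C/EBP families are known to bind.
Atf3, GRCm38.p6 chr1:191183334-191183483, minus strand: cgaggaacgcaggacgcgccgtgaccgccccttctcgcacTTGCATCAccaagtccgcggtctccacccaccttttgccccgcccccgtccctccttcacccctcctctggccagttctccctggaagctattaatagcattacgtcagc
Sprr1a, GRCm38.p6 chr3:92485882-92486031, minus strand: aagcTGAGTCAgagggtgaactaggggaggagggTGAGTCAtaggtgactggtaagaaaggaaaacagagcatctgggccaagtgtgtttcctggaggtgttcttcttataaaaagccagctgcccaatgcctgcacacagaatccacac
Flrt3, GRCm38.p6 chr2:140671477-140671626, minus strand: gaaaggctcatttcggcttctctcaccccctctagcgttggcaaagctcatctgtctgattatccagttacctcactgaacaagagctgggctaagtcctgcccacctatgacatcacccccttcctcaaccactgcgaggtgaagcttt
Sox11, GRCm38.p6 chr12:27342719-27342868, minus strand: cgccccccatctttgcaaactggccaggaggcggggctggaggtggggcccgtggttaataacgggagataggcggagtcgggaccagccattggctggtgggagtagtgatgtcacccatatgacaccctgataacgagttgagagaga

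The AP-1 motif TGACTCA, searched on both strands, stood in the Sprr1a window 2 times, at 146 to 140 and 116 to 110 bases before the start. It was in the windows of 1 of 7 members, against 5.2% of 32851 RefSeq promoter windows of 300 bases. The C/EBP-ATF motif TGATGCAA stood in the Atf3 window at 110 to 103 bases before the start. It too was in 1 of the 7 members' windows, against 0.895% of all windows. The CRE motif TGACGTCA was in none of the 7 members' windows, against 1.79% of all windows. Windows of 7 of the 10 members were found, and Gap43, Stmn4 and Nefl were not matched. In GENCODE M21 the Atf3 window lay inside the annotated gene, with 7 of its bases in an exon, whereas the Flrt3 window lay inside the Macrod2 gene, which spans Flrt3. A match describes letters and shows no binding.

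The recovered reads on genes ranged from 416007 to 12058968 per neuron, and their median was 2709639 for TL neurons and 3202777 for LS neurons. Levels are given as TPM, the deposited value taken off its log2 scale and set to a sum of 1000000 in each neuron, which is a level per length of the gene. A gene was called expressed at 10 TPM, which stood for as few as 1.33 reads (Sprr1a) to 13.7 reads (Sox11) in the neuron where it stood for the fewest. All 325 neurons held the neuronal markers Tubb3, Uchl1, Snap25 and Prph at 10 TPM or more. The 10 markers of satellite glia summed to 1.06 to 101073 TPM in TL neurons (median 2557) and to 0.407 to 61690.5 TPM in LS neurons (median 1437), with Kcnj10 and Sox10 at a median of 0. All 5 endothelial markers had a median of 0, though their sum reached 23379 TPM in 1 TL neuron and 88.6 TPM in LS neurons. A median of 0 was also seen for 9 of 10 macrophage markers, the list summing to at most 161 TPM in TL and 521 TPM in LS neurons, and for 4 of 5 fibroblast markers, the list summing to at most 1822 and 1866 TPM.

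Atf3 (ENSMUSG00000026628, chromosome 1, 191170296 to 191218039, minus strand) was found in nearly every neuron. In TL neurons it ran from 0 to 1746 TPM with a median of 199 TPM, and in LS neurons from 0 to 2545 TPM with a median of 328 TPM. It was expressed in 162 of 167 TL neurons (97.0%, 95% CI 93.2 to 99.0) and in 152 of 158 LS neurons (96.2%, 95% CI 91.9 to 98.6). The levels of the segments overlapped over almost their whole range. Library plates differed as well, since the median of Atf3 in TL neurons was 347 TPM on plate 2 and 126 TPM on plate 6.

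Sox11 (ENSMUSG00000063632, chromosome 12, 27334264 to 27342574, minus strand), a transcription factor of developing and regrowing neurons, was far lower. Its median was 6.16 TPM in TL neurons, with a highest value of 73.7 TPM, and 8.33 TPM in LS neurons, with a highest value of 94.0 TPM. The share of neurons at 10 TPM or more was 32.3% in TL and 40.5% in LS. Under a looser call at equal depth, at least 5 Sox11 reads among 450000 drawn per neuron, the shares were 70.1% of TL and 69.7% of LS neurons, with 3 neurons of lower depth left out.

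Flrt3 (ENSMUSG00000051379, chromosome 2, 140650914 to 140671469, minus strand) ran from 0 to 430.3 TPM in TL neurons with a median of 9.22 TPM, and from 0 to 571 TPM in LS neurons with a median of 17.7 TPM. It was thus spread from absent to strong within both segments, and 79 TL and 98 LS neurons passed 10 TPM. Gadd45a (ENSMUSG00000036390, chromosome 6, 67035096 to 67037457, minus strand) ran from 0 to 204 TPM in TL neurons with a median of 24.3 TPM, and from 0 to 446 TPM in LS neurons with a median of 47.7 TPM. Of its 1764 exonic bases, 337 are shared with the opposite-strand gene E230016M11Rik, from which unstranded reads cannot be told apart. Csf1 (ENSMUSG00000014599, chromosome 3, 107741048 to 107760469, minus strand) was low, with a median of 2.06 TPM and a highest value of 33.3 TPM in TL neurons and a median of 5.08 TPM and a highest value of 88.1 TPM in LS neurons.

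The growth cone protein gene Gap43 (ENSMUSG00000047261, chromosome 16, 42248442 to 42340651, minus strand) was among the strongest members, with a median of 1257 TPM for TL neurons and of 1209 TPM for LS neurons. Its values ran from 0 to 5802 TPM in TL neurons and from 12.9 to 2620.1 TPM in LS neurons, and both segments held a separate low band under 100 TPM. Nefl (ENSMUSG00000022055, chromosome 14, 68083863 to 68089095, plus strand) ran from 0 to 5514 TPM in TL neurons with a median of 1136 TPM, and from 436 to 4545 TPM in LS neurons with a median of 1076 TPM. In GENCODE M21, 1108 of the 3380 exonic bases of Nefl are shared with Nefm, the gene of the medium neurofilament subunit on the opposite strand. Stmn4 (ENSMUSG00000022044, chromosome 14, 66344296 to 66361680, plus strand), a member of the stathmin family of tubulin-binding proteins, ran from 0 to 329 TPM in TL neurons with a median of 2.35 TPM, and from 0 to 270.0 TPM in LS neurons with a median of 23.2 TPM. It was listed at 0 in 74 TL and 22 LS neurons.

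Sprr1a (ENSMUSG00000050359, chromosome 3, 92483952 to 92485895, minus strand) and Ecel1 (ENSMUSG00000026247, chromosome 1, 87147655 to 87156521, minus strand) had medians of 0 TPM in both segments. Sprr1a was above 0 in 31 of 325 neurons and Ecel1 in 67. Sprr1a belongs to a family of like genes, among which the counting could have split reads. Both genes were therefore found in few cells, in which they could be high, up to 10765 TPM for Sprr1a and 224 TPM for Ecel1.

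**Figure D1:**
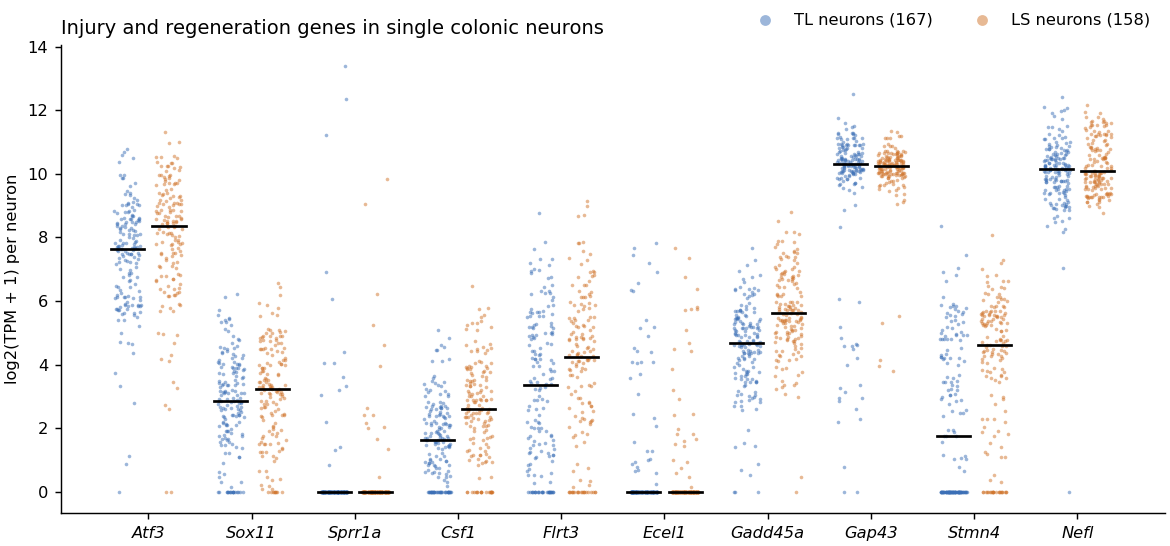
Level of each of the 10 genes in every neuron, as log2(TPM + 1), for 167 TL neurons (blue) and 158 LS neurons (orange). Each point is 1 neuron and black bars are medians, which reach 1257 TPM for Gap43 in TL neurons and lie at 0 for Sprr1a and Ecel1.

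Flrt3, Gadd45a and Sox11 rose and fell with Atf3 across neurons, and Nefl went the other way. Co-variation was measured by Spearman's rho across all 325 neurons, taken on ranks after plate, segment and the presence of Gfra3, Trpa1 and Piezo2 at 10 TPM had been removed (partial rho). Partial rho with Atf3 was 0.51 for Flrt3, 0.42 for Gadd45a and 0.34 for Sox11. These 3 of the 8 other members tested reached the level of 0.3 at which co-variation was called, as did 2.37% of 10282 genes tested. On the deposited scale, without rescaling, 3 members passed as well, but so did 22.3% of genes. Nefl, at -0.33, was the 1 member at or under -0.3, as were 0.477% of genes tested. Neurons share plates, cultures and mice, and genes of 1 neuron share its scaling, so these values describe the table and carry no p.

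Among all genes tested, Flrt3 stood at rank 10 by partial rho, Gadd45a at 41 and Sox11 at 123. Within single plates, and with no terms removed, rho of Flrt3 with Atf3 ran from 0.36 to 0.62. That of Gadd45a ran from 0.31 to 0.66 and that of Sox11 from 0.23 to 0.48. All 3 were thus positive in each of plates 2 to 6. Sox11 differed between the segments, with 0.19 in TL neurons alone and 0.42 in LS neurons alone after the same terms were removed. It came to 0.29 with all 8 combinations of the marker genes in each segment as terms. With no terms removed, rho of Sox11 in neurons with Gfra3 and Trpa1 but not Piezo2 was 0.07 in TL and 0.53 in LS. In neurons with Piezo2 alone it was 0.58 in TL and 0.41 in LS. The order of the segments thus differed between these classes. Nefl, again with no terms removed, was negative on 4 of these 5 plates, with a range from -0.35 to 0.14. Its sign rested on the rescaling, since on the deposited scale its partial rho with Atf3 was 0.17.

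**Figure D2:**
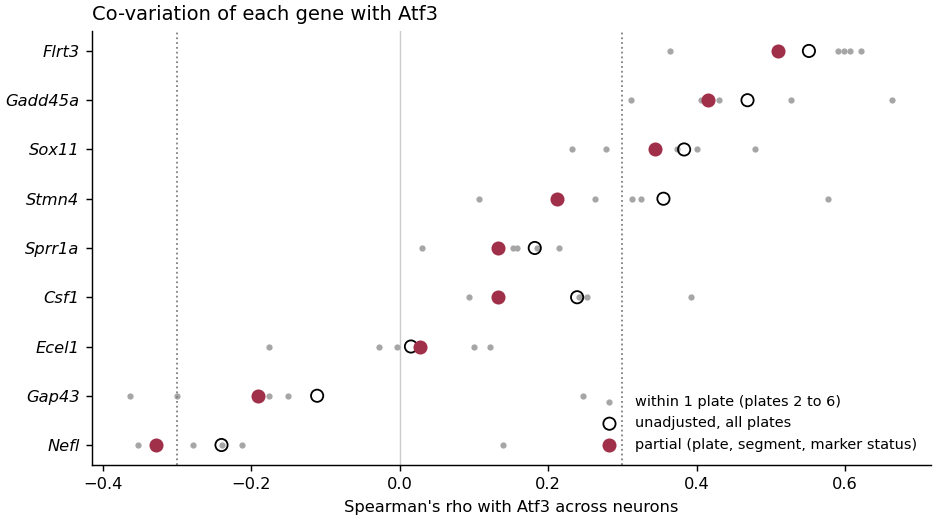
Spearman's rho of each other member with Atf3 across neurons. Red points are partial rho after plate, segment and marker status, and open circles unadjusted rho over 325 neurons. Grey points are unadjusted rho within plates 2 to 6, and dotted lines the calling levels. Flrt3, Gadd45a and Sox11 lie at 0.34 to 0.51 and Nefl at -0.33.

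By partial rho over all neurons, the other members followed Atf3 weakly or not at all. Stmn4 had a partial rho of 0.21, and its unadjusted rho of 0.36 made it the fourth member past 0.3 with no terms removed, against 1.99% of all genes tested. Within single plates the unadjusted rho of Stmn4 ran from 0.11 to 0.58. In neurons with Gfra3 and Trpa1 but not Piezo2 it was 0.31 in TL and 0.43 in LS. In neurons with Piezo2 alone it was 0.49 in TL and 0.17 in LS. Sprr1a and Csf1 both stood at 0.13 and Ecel1 at 0.03, and Sprr1a, at 10 TPM or more in 4.62% of neurons, did not pass the filter of 10% for the genes tested. For Gap43 the partial rho was -0.19. With no terms removed, its rho was 0.25 on plate 2 and -0.15 to -0.36 on plates 3 to 6. Gap43 is thus the second member, after Nefl, whose value was under 0, and on the deposited scale it too was above 0, at 0.20.

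Between the other members, partial rho was highest for Sox11 with Flrt3, at 0.41, followed by Csf1 with Flrt3, at 0.30. Gap43 and Stmn4 stood at 0.29, Flrt3 and Gadd45a at 0.27, Flrt3 and Stmn4 at 0.26, and Gap43 and Nefl at 0.19. Stmn4 and Nefl, at 0.0027, did not go together. Sox11 and Gadd45a, both called with Atf3, stood at only 0.06 with each other. Flrt3 thus had values of 0.3 or more with Atf3, Sox11 and Csf1.

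**Figure D3:**
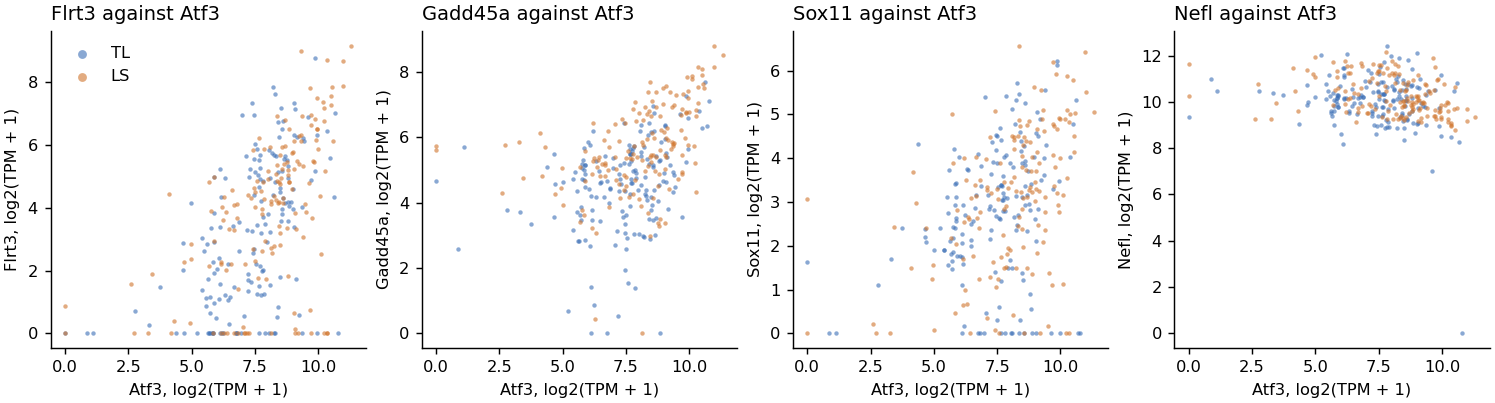
Flrt3, Gadd45a, Sox11 and Nefl plotted against Atf3 in every neuron, both axes as log2(TPM + 1), with TL neurons in blue and LS neurons in orange. Flrt3 (partial rho 0.51), Gadd45a (0.42) and Sox11 (0.34) climb with Atf3 over a wide spread, and Nefl (-0.33) does not.

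The 10 genes closest to Atf3 were led by H3f3b, which encodes a replacement histone H3, at 0.58, and by Atf4, the transcription factor of the integrated stress response, at 0.57. They also included Ifrd1 (0.55), Ppp1r15a (0.54), the stress-induced partner of a phosphatase that restores translation, and its constitutive counterpart Ppp1r15b (0.52). Sertad1 (0.54), the lamin gene Lmna (0.53), Csrnp1 (0.52), the transcription factor gene Klf6 (0.52) and Flrt3 (0.51) made up the rest. Within single plates, and with no terms removed, their rho ran from 0.36 to 0.70. As the 10 were picked by rho over these same neurons, the plate values are no independent check. Flrt3 was the 1 member of the examined set among them.

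A list of 30 other genes of nerve injury and regrowth was set beside the members, of which 22 passed the filter. Of these, 5 had a partial rho with Atf3 of at least 0.3, and none was at or under -0.3. They were Klf6 (0.52), the AP-1 subunit gene Jun (0.45), the transcriptional repressor gene Nfil3 (0.42), the C/EBP family gene Cebpd (0.41) and the TWEAK receptor gene Tnfrsf12a (0.40). The median over the 22 was 0.15, against 0.17 over the 8 members and -0.0045 over all genes tested. A second list of 14 early response and heat shock genes, of which 13 were tested, had 6 at 0.3 or more and a median of 0.27. Those 6 were Fosb (0.44), the chaperone gene Hspa5 (0.40), the haem oxygenase gene Hmox1 (0.39), Junb (0.39), Egr1 (0.38) and the phosphatase gene Dusp1 (0.32). The early response list thus had 6 of 13 genes past 0.3 and the injury list 5 of 22, against 2.37% of all genes tested. No test of that difference was made, and it depended on the segment. LS neurons alone had 3 early response and 9 injury genes past 0.3, beside 435 of all genes tested. TL neurons alone had 10 early response genes, beside 448. Within single plates, with no terms removed, the lowest rho was -0.14 for Fosb and -0.05 for Cebpd, and positive for the others named.

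The genes closest to each other member were also listed. Among the closest were Bhlhe41 (0.51) and Gm13889 (0.47) for Sox11 and Atf3 and Serinc5 (0.46) for Flrt3, and Gadd45a was closest to Atf4 (0.49), Cd63 (0.48) and Ifrd1 (0.47). Atf4 and Ifrd1 so stood beside both Gadd45a and Atf3. Gap43 was closest to Stmn2 (0.60), another stathmin of growing axons, Gng8 (0.53) and Myl12b (0.51), and Nefl to Nefm (0.73), Snap25 (0.51) and Stmn3 (0.50). Nefl and Nefm share exonic bases, and how reads over those bases were counted is not given. Stmn4 was closest to Abcg2 (0.51), Ptgir (0.47) and Hgf (0.46), and Csf1 to the chemokine gene Cx3cl1 (0.47), Pgr (0.46) and H2-T23 (0.45). For Ecel1 the leading values were Kirrel3 (0.32), Kcnc2 (0.29) and Abr (0.29), and for Sprr1a Gnl3 (0.25), Tnfrsf12a (0.23) and Pno1 (0.22).

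Nefl and Stmn4 marked a type of neuron. Gfra3, a co-receptor for artemin, and Trpa1, an irritant-gated channel, are found in peptidergic nociceptors, and Piezo2, a mechanically gated channel, is prominent in myelinated mechanoreceptors. For each of these genes, separation was measured by the area under the receiver operating curve (AUROC), within TL and within LS neurons, where 0.5 means no separation of neurons with the gene from those without it. The AUROC of Nefl for Piezo2 was 0.81 in TL and 0.84 in LS neurons. Median Nefl was 1577 TPM in Piezo2+ and 886 TPM in Piezo2- TL neurons, and 1993 TPM and 881 TPM in LS neurons. Stmn4 had an AUROC for Piezo2 of 0.73 in TL and 0.77 in LS neurons, with medians of 16.3 TPM against 0 TPM and of 41.3 TPM against 11.2 TPM. These 2 of the 9 members tested reached 0.7 in both segments, as did 3.26% of all genes tested, and no member was at or under 0.3 for Piezo2, against 1.71% of genes.

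In the other direction, Nefl was low in neurons with Gfra3 (AUROC 0.15 in TL, 0.11 in LS) and in neurons with Trpa1 (0.24 and 0.27). It was the 1 member at or under 0.3 in both segments, as were 2.56% of genes for Gfra3 and 1.96% for Trpa1. The splits overlap, since 79 of 110 Trpa1+ TL neurons and 54 of 60 Trpa1+ LS neurons also held Gfra3, without Piezo2. In the 20 TL neurons with Trpa1 and Piezo2 but not Gfra3, Nefl ran from 575 to 2835 TPM. No member reached 0.7 in both segments for Gfra3, against 3.6% of genes, or for Trpa1, against 3.54% of genes. Stmn4 had an AUROC of 0.37 and 0.25 for Gfra3 and of 0.29 and 0.34 for Trpa1. The mark of Nefl was weaker on the deposited scale, where its AUROC for Piezo2 was 0.63 in TL and 0.66 in LS neurons, while that of Stmn4 came to 0.71 in both. With Piezo2 status set at 50 TPM, Stmn4 fell to 0.67 in TL neurons and Nefl stood at 0.83.

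Atf3 and Flrt3 reached an AUROC of 0.7 for Piezo2 in TL only, so by the rule for both segments they marked no type. In TL neurons the AUROC was 0.71 for Atf3, with medians of 299 TPM against 131 TPM, and 0.78 for Flrt3, with medians of 30.7 TPM against 2.58 TPM. In LS neurons the same values were 0.42 for Atf3 and 0.57 for Flrt3. Sox11 went from 0.63 in TL to 0.38 in LS neurons. The difference between segments was not tested, since each segment is 1 sample. The share of all genes at 0.7 in TL alone is not given, so these values describe the members only.

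**Figure D4:**
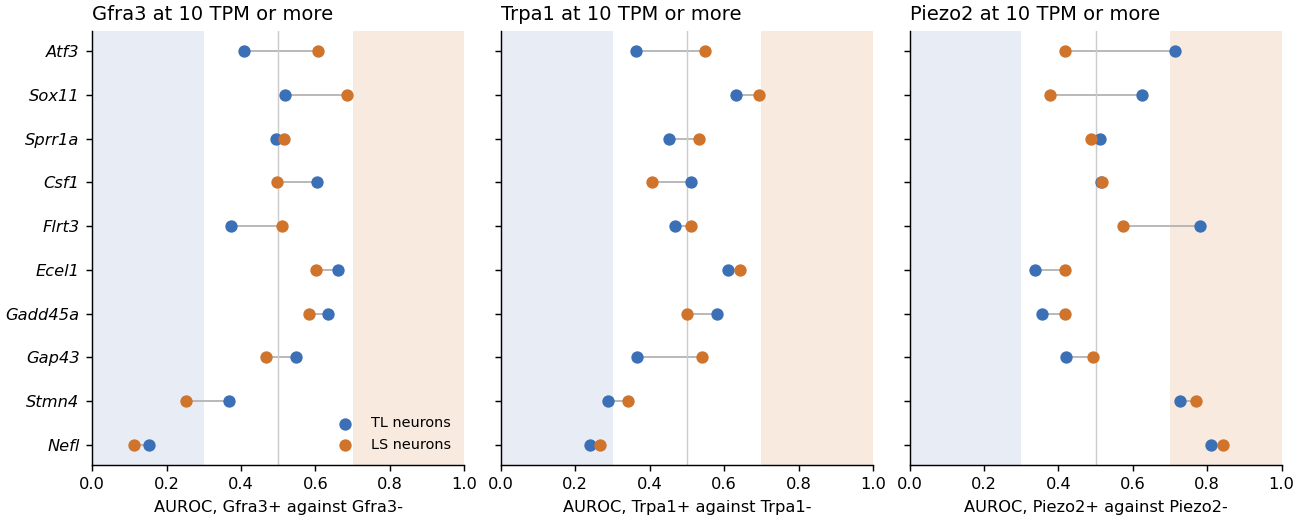
AUROC of each member for neurons with Gfra3, Trpa1 or Piezo2 at 10 TPM or more, within TL neurons (blue) and within LS neurons (orange). Shaded bands lie at or under 0.3 and at or above 0.7. Nefl lies in the upper band for Piezo2 and in the lower band for Gfra3 and Trpa1 in both segments, and Stmn4 in the upper band for Piezo2.

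Combinations of the 3 marker genes resolved the members further. Neurons with Gfra3 and Trpa1 but not Piezo2 numbered 79 in TL and 54 in LS, and neurons with Piezo2 alone 35 and 62. A further 20 TL neurons held Piezo2 and Trpa1 without Gfra3, a combination seen in 3 LS neurons. In these 20 neurons Flrt3 ran from 19.1 to 196 TPM with a median of 50.0 TPM, so that all 20 passed 10 TPM, against 18 of the 79 TL neurons with Gfra3 and Trpa1. Sox11 had a median of 19.2 TPM in the 20 neurons, against 5.37 TPM in the 79.

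The same 20 neurons were split in Gap43, with 11 at 0.715 to 61.8 TPM and 9 at 519 to 1907 TPM, whereas the 79 TL neurons with Gfra3 and Trpa1 ran from 321 to 5802 TPM. In the whole table Gap43 was under 100 TPM in 28 neurons, 23 TL and 5 LS, and no neuron lay between 65.2 and 321 TPM. Of the 28 neurons 25 held Piezo2, 12 held Trpa1 and none held Gfra3 at 10 TPM. The low band was thus found in neurons without Gfra3, in both segments.

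Other members were then read in the low band, which had been chosen by Gap43. Atf3 ran from 41.4 to 990.3 TPM in its 23 TL neurons with a median of 207 TPM, against a median of 196 TPM in the other 144 TL neurons. Stmn4 there was at most 6.40 TPM, with a median of 0 TPM against 5.96 TPM. Nefl had a median of 1495 TPM against 1080.2 TPM, and Flrt3 of 29.7 TPM against 7.33 TPM. None of the 23 held Gfra3, whereas all 100 TL neurons with Gfra3 were among the 144. Over the 67 TL neurons without Gfra3, low band included, medians were 1622 TPM for Nefl and 19.2 TPM for Flrt3. There they were 254 TPM for Atf3 and 9.08 TPM for Stmn4. The higher Nefl median of the low band was thus not seen beside neurons without Gfra3. In the 5 LS neurons Atf3 had a median of 353 TPM, against 327 TPM in the other 153. The median number of genes above 0 was 12850 in the 23 TL neurons, against 13596 in the other TL neurons.

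**Figure D5:**
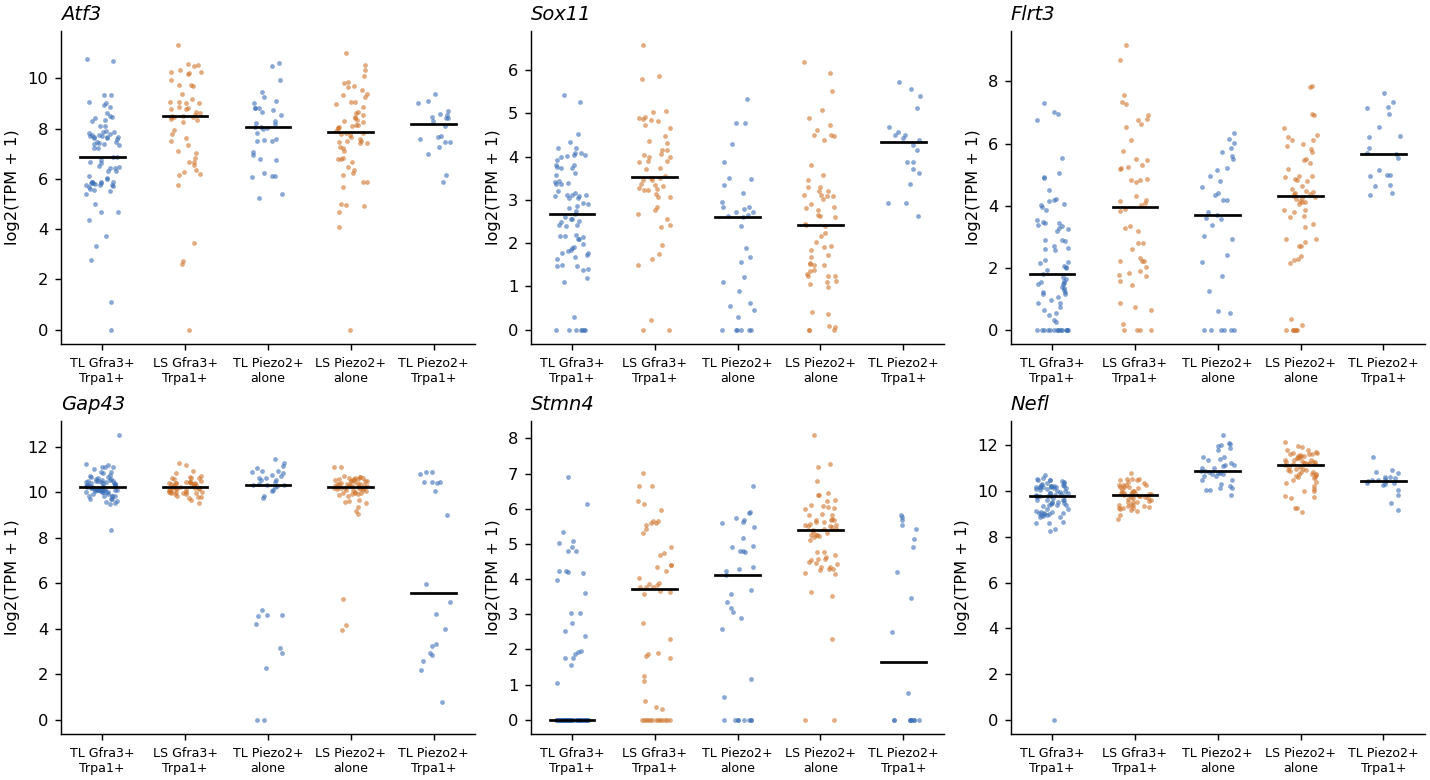
Atf3, Sox11, Flrt3, Gap43, Stmn4 and Nefl, as log2(TPM + 1), in neurons grouped by marker genes at 10 TPM. The classes are Gfra3+ Trpa1+ neurons without Piezo2 (79 TL, 54 LS), neurons with Piezo2 alone (35 TL, 62 LS) and Piezo2+ Trpa1+ neurons without Gfra3 (20 TL). Points are neurons, bars medians, blue TL and orange LS. Gap43 splits into a high and a low band among Piezo2+ neurons, and in the last class 11 of 20 neurons lie in the low band.

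Csf1 and Gadd45a were the members with at least 2-fold higher means in LS than in TL neurons. The mean in LS over that in TL was 2.53 for Csf1 (9.30 against 3.67 TPM) and 2.28 for Gadd45a (74.0 against 32.5 TPM). They were 2 of 9 members tested, and 2-fold was reached by 2.99% of genes, and none was at or under 0.5, against 3.2% of genes. Ratios were 1.90 for Stmn4, 1.63 for Atf3, 1.60 for Flrt3 and 1.30 for Sox11, and the median over all genes tested was 1.03. For these 6 members the LS mean was the higher on each of the 5 plates that held both segments, from 1.08 (Sox11 on plate 2) to 3.68 (Csf1 on plate 5). The share of all genes higher on each plate is not given. These plates hold the same neurons as the overall ratios, so they are no independent check. Nefl stood at 1.12 and Gap43 at 0.957, with plates on both sides of 1. As LS and TL are 1 sample each, a segment cannot be told apart from the culture, and the shares of neuron types differed between them.

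The segments were also compared within classes of the marker genes, which rest on 3 genes and need not hold the same subtypes of neuron in TL and LS. Median Trpa1 in Gfra3+ Trpa1+ neurons without Piezo2 was 543 TPM in TL and 185 TPM in LS. In Gfra3+ Trpa1+ neurons without Piezo2, the median of Atf3 was 116 TPM in TL and 363 TPM in LS, and the ratio of means was 2.51. Flrt3 there had a ratio of 4.05 (medians 2.43 and 14.6 TPM), Stmn4 3.29, Csf1 2.36, Gadd45a 2.30 and Sox11 2.11. In neurons with Piezo2 alone, Atf3 came to 0.999, with medians of 267 TPM in TL and 235 TPM in LS, and Flrt3 to 1.61. Gadd45a (2.39), Csf1 (2.53) and Stmn4 (2.18) had ratios above 2 in that class as well. Ratios of Csf1, Gadd45a and Stmn4 were thus above 2 in both classes. Those of Atf3, Flrt3 and Sox11 were above 2 only in the class with Gfra3 and Trpa1. The median ratio over all genes tested was 1.03 in that class and 1.05 in neurons with Piezo2 alone. The share of all genes past 2-fold within these classes is not given, so the ratios describe the members only.

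Sprr1a, one of the most strongly induced genes of a cut DRG neuron, was at 10 TPM or more in 9 of 167 TL neurons (5.39%, 95% CI 2.49 to 9.98) and in 6 of 158 LS neurons (3.80%, 95% CI 1.41 to 8.08). The highest 3 were TL neurons of plate 2, at 10765, 5268 and 2362 TPM, and they held 14026, 7109 and 2120 reads of the gene. In them Atf3 stood at 1559, 939 and 1319 TPM and Ecel1 at 202, 77.8 and 224 TPM. Only 8265, 8964 and 8403 genes were above 0 in these neurons, against a median of 13497 in TL neurons. Over the 15 neurons with Sprr1a, median Atf3 was 513 TPM, against 227 TPM in the rest, and median Flrt3 was 49.6 TPM, against 12.8 TPM. Of these 15 neurons, 5 TL and 1 LS were from plate 2. Median Atf3 on that plate was 347 TPM in TL and 718 TPM in LS neurons. The medians were not adjusted for plate, and the partial rho of Sprr1a with Atf3 was 0.13. The mean ratio of Sprr1a, 0.0917 LS over TL, rested on these few cells, being 0.215 without the highest neuron and 6.76 without plate 2.

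Ecel1 was at 10 TPM or more in 21 TL neurons (12.6%) and 13 LS neurons (8.23%). Of these 34 neurons, 33 held Gfra3, 31 held Trpa1 and 2 held Piezo2 at 10 TPM or more. Their median Atf3 was 201 TPM, against 254 TPM in the rest, and 6 of the 34 had Sprr1a above 0. In neurons with Gfra3 and Trpa1 the share with Ecel1 was 22.8% in TL and 22.2% in LS. In neurons with Piezo2 alone it was 1 of 35 in TL, which was the neuron with the most Sprr1a, and 0 of 62 in LS, where an exact interval reaches to 5.78%. Ecel1 thus lay mostly in neurons with Gfra3 and did not follow Atf3.

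Other measures moved with the members. The partial rho of summed satellite glia markers was 0.23 with Atf3, 0.28 with Gadd45a and -0.22 with Sox11, and with those markers as a further term the rho with Atf3 was 0.38 for Gadd45a, 0.52 for Flrt3 and 0.42 for Sox11. Summed fibroblast markers stood at 0.23 with Atf3, 0.25 with Gadd45a and 0.33 with Csf1, and at -0.29 with Gap43. Summed macrophage markers had a median of 19.8 TPM in TL and 47.3 TPM in LS neurons, with a partial rho of 0.20 with Csf1 and 0.095 with Gadd45a (unadjusted 0.25 and 0.27), the members that reached 2-fold between segments. The part of these markers in the results was not tested, other than by the term for satellite glia. The number of genes above 0 had a partial rho of 0.33 with Nefl, 0.30 with Csf1 and -0.10 with Atf3. Without the 47 neurons low in genes above 0, rho with Atf3 was 0.57 for Flrt3, 0.37 for Gadd45a, 0.44 for Sox11 and -0.31 for Nefl, and the LS over TL ratio of Stmn4 passed 2, at 2.14.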

How the data were processed

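Single neurons were sequenced by a Smart-seq2 protocol in 6 pooled libraries of paired-end reads. Per the labels and the study's methods, the authors aligned reads to GRCm38.p3 and counted them on Ensembl genes, and the submitters' processing notes name STAR 2.4.1, featureCounts 1.4.4 and bcl2fastq 2.15.0.4. They removed low-quality cells and normalised the values. The authors deposited 1 table, on a log2 scale with an added 1 and in a length-scaled unit of no other name, for 325 of the labelled neurons (203 TL and 196 LS). The remaining 36 TL and 38 LS neurons, with 13 controls of bath solution, are not analysed here. No pair of neurons had identical values. Column names are cell numbers, which match the sample titles.

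Each deposited log2 value was taken off its log scale, less the added 1, to give x, and rescaled to 1000000 per neuron (TPM). Because x is reads times a factor of the neuron over gene length, whole reads were recovered with GENCODE M21 exonic lengths. With these, 65.3% of values above 0 were whole within a relative tolerance of 1e-09, against 0.262% with lengths changed at random, and lengths of 8712 other genes were found from the values. Symbols were matched for 44585 genes. Genes at 10 TPM in at least 10% of neurons were tested (10283, with 9 of the 10 members).

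Partial rho, AUROC and ratios of means were computed in Python 3.11 and checked on simulated data. Co-variation was called at a rho of 0.3 in either direction, a type mark at an AUROC of 0.7 (or 0.3) in both segments, and a segment difference at 2-fold. Shares have exact Clopper-Pearson 95% intervals. Named genes are all members, the 10 genes closest to Atf3, the 3 closest to each other member, and list genes past the rho rule, apart from an item that is not reported here. Alternatives changed the scale, terms, thresholds, gene filter, plates and cells. The members and lists were chosen with earlier results of these data known. The motifs, the band of 28 neurons low in Gap43 and the mean of Sprr1a without its highest neuron were chosen after values had been seen. The analysis has no replicate animals, and no test was run.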

Additional observations from a re-analysis of the deposited data

How the results depend on the processing

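Each alternative changed 1 choice, except that thinning changed depth, the call and the neurons together. Flrt3 and Gadd45a stayed at a rho of 0.3 or more with Atf3 in all 17 alternatives that changed the values, Sox11 in 15 and Nefl at or under -0.3 in 13. On the deposited log2 scale, 2296 genes passed 0.3, against 244, with 9 genes of the injury list and 11 of the early response list, no member was at or under -0.3, Nefl turned to 0.17, and 1 member in place of 2 marked a type. The sum of x per neuron, which that scale keeps, ran from 218865 to 1.12e+07. With no terms, and with a call at 0.4, no member was at or under -0.3. A call at 0.2 gave 779 genes, 9 of the injury and 10 of the early response list, and a call at 0.4 gave 51 genes and 2 of the early response list. TL neurons alone gave 448 genes and 10 early response genes, and LS neurons alone 435 genes, 9 injury genes and 3 early response genes. Leaving out 1 plate gave 0 or 1 members at or under -0.3, with 0 without plate 4 and without plate 5. At a marker status of 50, and at an AUROC of 0.8, 1 member marked a type. Atf3 was at 1 TPM or more in 98.7% of LS neurons, and at 100 TPM or more in 68.9% of TL and 79.7% of LS neurons. Log2 LS over TL of Sprr1a, -3.45, ran from -4.89 to 2.76 with 1 plate left out and was 2.97 without the 47 neurons low in genes above 0. The causes were not tested. No paired analysis was possible because no test was run and the numbers of neurons pair no cells; plates with both segments are compared by their ratios. Of the other values, 1195 moved by less than the spread between plates or their interval and 58 by more. The 1195 include values of rho and AUROC that a changed call or gene filter could not move, so the count is no measure of stability. Thinning left out 3 neurons with fewer than 450000 reads. With 1 sample per segment, differences between segments carry no replicate error.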
